A study of Mus musculus with 16 samples.

Results

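The subject is a module of 42 mouse genes of Wnt signalling and of the colonic stem cell, followed in RNA-seq of colonocytes, the absorptive lining of the colon. The members were chosen by name from a fixed list of symbols, and all 42 were found among the 54392 gene symbols of the count table. They comprise 11 markers of crypt base stem cells, 5 receptors, 5 genes of Wnt ligands, their release or their antagonism, 4 genes of the destruction complex with its substrate beta-catenin, 5 feedback inhibitors, 4 transcription factors of the TCF/LEF family and 8 other target genes of the pathway. C57BL/6 mice had been fed for 3 weeks either a diet of fish oil with pectin, a fermentable fibre (7 libraries), or a diet of corn oil with cellulose, a poorly fermented fibre (9 libraries). Oil and fibre changed together, so their separate parts cannot be told apart. Age, sex and housing are not given in the labels used here. The labels number biological replicates without tying them to animals, and p-values therefore reflect only library-to-library spread, which may be technical.

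Wnt proteins are lipid-modified ligands that bind a Frizzled receptor together with the co-receptor Lrp5 or Lrp6. Without ligand, a cytoplasmic complex of Axin, Apc and the kinase Gsk3b marks beta-catenin for destruction. With ligand, beta-catenin accumulates and acts in the nucleus on TCF/LEF factors. In the colon this signal is strongest at the crypt base, where it maintains Lgr5-positive stem cells and switches on its own inhibitors, such as Axin2, Rnf43, Znrf3, Nkd1 and Notum.

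Library totals ran from 16212831 to 19512755 counts with fish oil/pectin and from 13996288 to 19331984 with corn oil/cellulose, and the 42 members took 0.306 to 0.465% of them. Library names came in 2 forms, beginning with GC (5 libraries of each diet) or not (2 with fish oil/pectin, 4 with corn oil/cellulose). The labels leave the meaning of these forms unstated. All 6 libraries without GC but only 3 of the 10 with GC read as male from Y-linked genes. The cells carried epithelial markers. These summed to 14881 to 26638 CPM (counts scaled to library size) with fish oil/pectin and to 14879 to 18532 with corn oil/cellulose. Of the 9, 6 rose with fish oil/pectin, against 21.7% of all genes tested. Surface colonocyte markers summed to 10425 to 14479 CPM with fish oil/pectin and 7824 to 10962.5 CPM with corn oil/cellulose in GC-named libraries. In the others they summed to 6884 to 7142 CPM and 7713 to 9004 CPM with these diets. Deep crypt secretory and goblet markers summed to 2865 to 5612 CPM and 3097 to 5293 CPM with these diets in GC-named libraries. In the others they summed to 7611 to 7751 CPM and 5855 to 8936 CPM. Markers of T cells, non-epithelial cells that also express Tcf7 and Lef1, summed to 15.7 to 36.2 CPM with fish oil/pectin and to 13.7 to 98.6 with corn oil/cellulose. Fibroblast markers summed to 6.56 to 15.8 CPM with fish oil/pectin and to 5.67 to 20.8 with corn oil/cellulose. Smooth muscle markers reached at most 0.536 CPM with fish oil/pectin and 0.615 CPM with corn oil/cellulose, with Cnn1 at 0. Endothelial markers summed to 3.79 to 11.6 CPM with fish oil/pectin and to 6.87 to 12.3 CPM with corn oil/cellulose, with Cdh5 at 0. Macrophage and myeloid markers were at 5.48 to 7.199 CPM with fish oil/pectin and 7.82 to 10.3 CPM with corn oil/cellulose in GC-named libraries. In the others they were at 4.83 to 5.62 CPM with fish oil/pectin and 6.20 to 7.13 CPM with corn oil/cellulose. Over all libraries 1 of the 5 tested fell, against 20.1% of all genes. The part of these cells in the members' differences was not tested. In such bulk RNA, fewer cells of a type and less RNA per cell cannot be told apart.

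With fish oil/pectin 9 members fell and 3 rose. The genes that fell were the receptors Fzd5, Fzd7 and Lrp6, the Wnt release factor Wls, the destruction complex genes Apc and Gsk3b, the transcription factors Tcf7l2 and Sox9, and the cell cycle kinase gene Cdk6. The genes that rose were the stem cell regulator Ascl2, the proliferation-linked Cdca7 and the cyclin gene Ccnd1. These changes were small, between 0.24 and 0.54 on the log2 scale in absolute size. The other 26 members tested, Lgr5, Axin2 and Ctnnb1 included, did not pass, and 4 had too few counts to be tested. The test was edgeR's robust quasi-likelihood test across 14321 genes with the name form as a term, at a Benjamini-Hochberg adjusted p under 0.05. By it 12 of 38 tested members (31.6%) passed, against 41.7% of all genes tested. The 3 that rose are 7.89% of the members, against 21.7% of all genes, and the 9 that fell are 23.7%, against 20.1%. The median log2 fold change of fish oil/pectin against corn oil/cellulose was -0.13 over the members and -0.0043 over all genes. None of the 42 members had CPM ranges that kept the diets fully apart, which was the case for 3.36% of all genes.

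**Figure D1:**
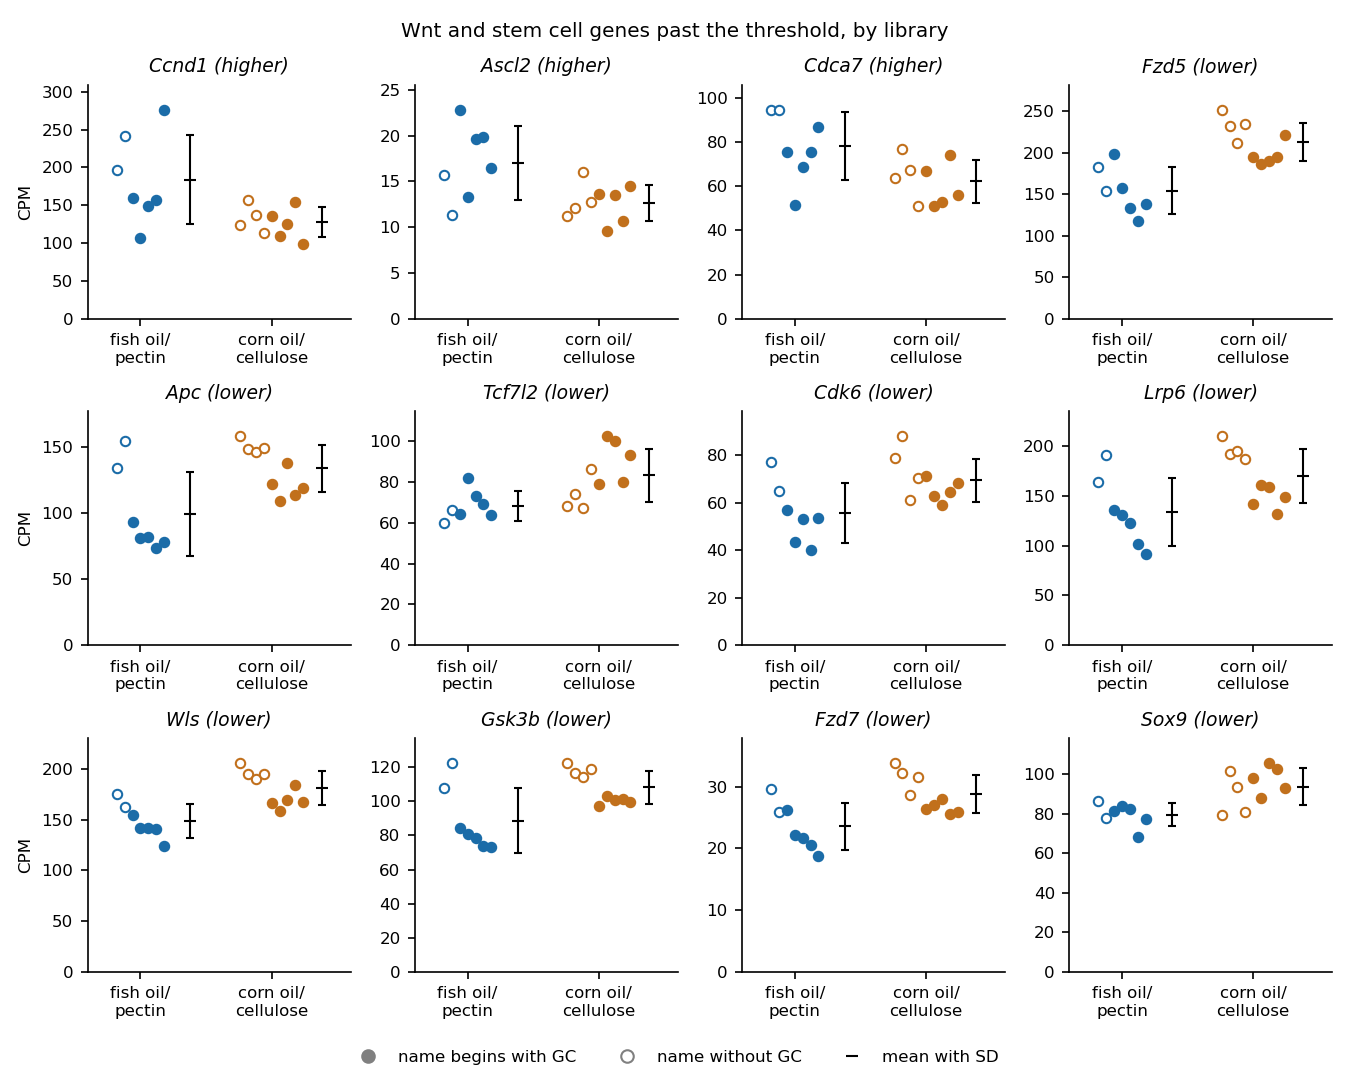
Level in CPM (vertical axes, from 0) of the 12 members that passed, in each fish oil/pectin library (blue, left) and each corn oil/cellulose library (orange, right). Filled points are libraries named GC, open points the others, and bars give the mean with SD. Fzd5 lay between 118 and 198 CPM in the 7 fish oil/pectin libraries and between 186 and 252 CPM in the 9 corn oil/cellulose libraries, and 6 of the 7 lay below all 9.

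The sequences before the starts of 5 members are shown to look for the DNA motif that TCF/LEF factors bind, CTTTGA on either strand, which is set in capitals. Fzd5, Fzd7 and Cdca7 are the members with an entry in the RefSeq promoter table (GRCm38.p6) that passed both in the fit of all libraries and once the trend on exon length was removed, and Sp5 and Gsk3b are members in which the motif was found. Each run is the 250 bases before the start in that promoter table, read 5′ to 3′ on the gene's strand. These starts can differ from the GENCODE M21 gene coordinates given elsewhere in the text. The GENCODE start of Cdca7 (72476159) lies within its run, and that of Fzd7 (59482424) lies beyond the end of its run.
Fzd5, chr1:64737751-64738000, minus strand: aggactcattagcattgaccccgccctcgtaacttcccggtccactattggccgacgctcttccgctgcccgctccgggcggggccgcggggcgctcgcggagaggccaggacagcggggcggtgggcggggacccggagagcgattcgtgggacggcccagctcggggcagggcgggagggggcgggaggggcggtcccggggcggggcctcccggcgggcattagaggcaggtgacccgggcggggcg
Fzd7, chr1:59481897-59482146, plus strand: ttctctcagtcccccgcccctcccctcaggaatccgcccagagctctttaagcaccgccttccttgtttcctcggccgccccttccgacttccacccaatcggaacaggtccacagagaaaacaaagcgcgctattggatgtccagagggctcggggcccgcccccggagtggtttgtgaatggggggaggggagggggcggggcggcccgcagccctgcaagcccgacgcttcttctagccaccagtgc
Cdca7, chr2:72475969-72476218, plus strand: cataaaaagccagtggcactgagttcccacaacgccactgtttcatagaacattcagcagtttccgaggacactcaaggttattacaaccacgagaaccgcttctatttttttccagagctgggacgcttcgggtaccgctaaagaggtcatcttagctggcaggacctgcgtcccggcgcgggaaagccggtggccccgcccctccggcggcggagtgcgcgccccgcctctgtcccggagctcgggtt
Sp5, chr2:70474673-70474922, plus strand: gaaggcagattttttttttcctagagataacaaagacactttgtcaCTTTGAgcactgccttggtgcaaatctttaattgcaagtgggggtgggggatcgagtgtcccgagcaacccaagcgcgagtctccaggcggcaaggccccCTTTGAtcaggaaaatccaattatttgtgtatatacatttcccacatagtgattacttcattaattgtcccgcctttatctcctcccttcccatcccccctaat
Gsk3b, chr16:38088751-38089000, plus strand: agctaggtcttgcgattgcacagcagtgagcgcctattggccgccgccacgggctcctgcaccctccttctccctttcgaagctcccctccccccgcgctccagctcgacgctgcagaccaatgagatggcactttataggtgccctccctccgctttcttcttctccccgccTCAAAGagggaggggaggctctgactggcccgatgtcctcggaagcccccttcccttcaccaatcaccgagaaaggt
Sp5 held 2 copies, which begin 204 and 104 bases before the start, and Gsk3b held 1 copy on the opposite strand, 77 bases before the start. No copy lay in the windows of Fzd5, Fzd7 or Cdca7. Of the 42 members 27 had an entry, with 39 starts in all, and 5 starts (12.8%) held the motif, against 13.8% of the 32851 promoters in the table. The 5 members were Gsk3b, Lef1, Sp5, Tnfrsf19 and Wnt11. The longer form CTTTGAT, which contains the shorter one, was in only 3 of the members' 39 starts (7.69%), against 3.21% of all promoters. These 3 belong to Sp5, Tnfrsf19 and Wnt11. Gsk3b fell, whereas Sp5, Tnfrsf19 and Wnt11 did not pass.

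Among the receptors, both Frizzled genes of the module and Lrp6 were lower with fish oil/pectin. Fzd5 (chr1:64730558-64737751, minus strand, GRCm38), a Frizzled receptor of the intestinal epithelium, had 118, 153 and 198 CPM (lowest, median and highest) in fish oil/pectin libraries, against 186, 212 and 252 CPM in corn oil/cellulose libraries. All 7 fish oil/pectin libraries lay below the corn oil/cellulose median, and Fzd5 fell by 0.43 ± 0.09 on the log2 scale (SE, adjusted p = 0.00132). Fzd5 shares 1233 exon bases with Gm38058 on the opposite strand, which had 82 counts in all libraries against 50926 for Fzd5. Fzd7 (chr1:59482424-59486955), a Frizzled receptor tied to intestinal stem cells, had 18.8, 22.2 and 29.6 CPM with fish oil/pectin and 25.5, 28.0 and 33.9 CPM with corn oil/cellulose. Here 4 of 7 fish oil/pectin libraries lay below all 9 others, and the log2 fold change was -0.25 ± 0.07 (adjusted p = 0.00863). The co-receptor gene Lrp6 (chr6:134446476-134566965) had 91.9, 130 and 191 CPM with fish oil/pectin and 132, 161 and 210 CPM with corn oil/cellulose (log2 fold change -0.28 ± 0.08, adjusted p = 0.0106). Its sister Lrp5 had 80.5, 96.1 and 132 CPM with fish oil/pectin and 90.3, 98.6 and 125 CPM with corn oil/cellulose. The diets overlapped, and the change of 0.0074 ± 0.07 (adjusted p = 0.949) did not pass. The R-spondin receptor gene Lgr4 had 164, 263 and 346 CPM with fish oil/pectin and 252, 304 and 348 CPM with corn oil/cellulose (-0.21 ± 0.09, adjusted p = 0.0752), so it did not pass.

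The module's ligand genes Wnt3 and Wnt11 were barely read in these cells, and the 1 change that passed concerned ligand release. Wls (chr3:159839672-159938664), the carrier that brings Wnt proteins to the cell surface, had 124, 142 and 176 CPM with fish oil/pectin and 159, 184 and 206 CPM with corn oil/cellulose. All 7 fish oil/pectin libraries lay below the corn oil/cellulose median, and Wls fell by 0.25 ± 0.05 on the log2 scale (adjusted p = 0.00142). Porcn, which attaches the lipid to Wnt proteins, had 2.41, 4.16 and 6.35 CPM with fish oil/pectin and 4.25, 5.09 and 7.29 CPM with corn oil/cellulose (-0.35 ± 0.15, adjusted p = 0.0707). Wnt11, a ligand mostly linked to beta-catenin-independent signalling, had at most 1.09 CPM with fish oil/pectin and 0.798 CPM with corn oil/cellulose, and its log2 fold change was 0.09 ± 0.38. Wnt3, a ligand that Paneth cells supply in the small intestine, had 19 counts over the 7 fish oil/pectin libraries and 26 over the 9 corn oil/cellulose libraries. Dkk3, a secreted protein of the Dickkopf family, had 11 counts with fish oil/pectin and 23 with corn oil/cellulose, and the filter on low counts left both genes out of the test.

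In the destruction complex Apc and Gsk3b fell, Axin1 did not pass, and neither did beta-catenin itself. Apc (chr18:34220924-34322552), the scaffold and tumour suppressor lost in most colorectal cancers, had 73.2, 82.2 and 155 CPM with fish oil/pectin and 109, 137 and 158 CPM with corn oil/cellulose. The log2 fold change was -0.38 ± 0.08 (adjusted p = 0.00171), and 5 of 7 fish oil/pectin libraries lay below all 9 others, all 5 of them named GC. Gsk3b (chr16:38089001-38246084), the kinase that phosphorylates beta-catenin, had 73.0, 80.8 and 122 CPM with fish oil/pectin and 97.0, 103 and 123 CPM with corn oil/cellulose, and fell by 0.25 ± 0.06 (adjusted p = 0.00324). Again the same 5 libraries lay below all others. Axin1, the limiting scaffold of the complex, had 73.2, 77.7 and 87.3 CPM with fish oil/pectin and 70.6, 74.1 and 79.2 CPM with corn oil/cellulose (0.10 ± 0.05, adjusted p = 0.13). Ctnnb1, which encodes beta-catenin, had 885, 920 and 1037 CPM with fish oil/pectin and 951, 981 and 1101 CPM with corn oil/cellulose, with a log2 fold change of -0.06 ± 0.05 (adjusted p = 0.367). Per exon length Ctnnb1 had the highest level of the module within each diet, at a mean of 529 TPM (CPM rescaled by exon length) with fish oil/pectin and 642 with corn oil/cellulose.

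No feedback inhibitor passed in either direction in the fit of all libraries. At an unadjusted p under 0.05 there was 1 of 4 tested, Rnf43, where at least the 41.7% of all genes that passed after adjustment lie. Rnf43 also passed as lower in limma voom, as did Bmi1, Lgr4 and Tcf7. There 13 members fell, and 42.8% of all genes passed in either direction. Axin2, the inhibitor gene most used as a readout of the pathway, had 58.6, 70.1 and 87.3 CPM with fish oil/pectin and 64.1, 81.7 and 86.2 CPM with corn oil/cellulose (-0.14 ± 0.08, adjusted p = 0.149). Rnf43 and Znrf3, ubiquitin ligases that remove Frizzled receptors from the cell surface, had log2 fold changes of -0.19 ± 0.08 (adjusted p = 0.069) and -0.23 ± 0.12 (adjusted p = 0.112). Rnf43 had 47.9, 61.0 and 72.3 CPM with fish oil/pectin and 57.2, 70.6 and 76.0 CPM with corn oil/cellulose. Nkd1, an inhibitor that acts on Dishevelled, lay near 1 CPM in both diets and its log2 fold change was 0.20 ± 0.24. Notum, a secreted enzyme that removes the lipid from Wnt proteins, was left out by the filter on low counts, with 58 counts over 7 fish oil/pectin libraries (5 to 13 in each) and 36 over 9 corn oil/cellulose libraries (1 to 9 in each). All 7 fish oil/pectin libraries lay above the corn oil/cellulose median of 0.186 CPM. Without the filter Notum passed, with a log2 fold change of 1.07 (adjusted p = 0.0347) in edgeR and 1.09 (adjusted p = 0.0329) in DESeq2.

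Of the TCF/LEF factors, Tcf7l2 fell. Tcf7l2 (chr19:55741820-55933654), the main TCF factor of the intestinal epithelium, had 59.9, 66.2 and 81.8 CPM with fish oil/pectin and 67.4, 80.1 and 103 CPM with corn oil/cellulose. The log2 fold change was -0.32 ± 0.08 (adjusted p = 0.00344), with 6 of 7 fish oil/pectin libraries below the corn oil/cellulose median. Tcf7l1, mostly a repressor, had 22.3, 52.2 and 55.5 CPM with fish oil/pectin and 42.4, 59.6 and 71.9 CPM with corn oil/cellulose (-0.34 ± 0.16, adjusted p = 0.0934). It shares 179 exon bases with the antisense gene Gm15401, which had 18000 counts against 14825 for Tcf7l1, and no source used here gives the strand setting of the counting. Tcf7, which T cells express at high levels, had 6.25, 7.79 and 11.9 CPM with fish oil/pectin and 6.56, 11.0 and 16.8 CPM with corn oil/cellulose (-0.32 ± 0.19, adjusted p = 0.2). Lef1, also a lymphocyte gene, had 16 counts over the 7 fish oil/pectin libraries and 52 over the 9 corn oil/cellulose libraries. GC-named libraries held 16 of these counts with fish oil/pectin and 46 with corn oil/cellulose. T cell markers also differed between the diets there, and the part of T cells in Lef1 was not tested. Lef1 was not tested by the fit for its low counts, and without the filter it was at -1.60 (adjusted p = 0.00391).

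The crypt base stem cell markers gave no common direction, with 2 higher, 1 lower and 8 that did not pass. Ascl2 (chr7:142966829-142969264), a transcription factor that controls the stem cell state, had 11.3, 16.5 and 22.9 CPM with fish oil/pectin and 9.54, 12.8 and 15.99 CPM with corn oil/cellulose. It rose by 0.40 ± 0.14 on the log2 scale (adjusted p = 0.0258), with 6 of 7 fish oil/pectin libraries above the corn oil/cellulose median, but its call was lost when fish oil/pectin library 3, fish oil/pectin library 6, corn oil/cellulose library 6 or corn oil/cellulose library 8 was left out. With a term for T cell markers Ascl2 was at 0.08 (adjusted p = 0.794). Of 21 settings other than leaving out 1 library, 11 lost the call of Ascl2, this term included, and 1 reversed its sign. Cdca7 (chr2:72476159-72486893), a chromatin-associated gene of cycling cells, had 51.8, 75.8 and 94.9 CPM with fish oil/pectin and 51.1, 63.9 and 76.8 CPM with corn oil/cellulose (0.36 ± 0.11, adjusted p = 0.0148). Cdk6 (chr5:3341485-3531008), a kinase gene of the G1 phase listed here with the stem cell markers, had 40.0, 53.7 and 77.0 CPM with fish oil/pectin and 59.2, 68.1 and 88.0 CPM with corn oil/cellulose (-0.28 ± 0.09, adjusted p = 0.0199). Lgr5, the R-spondin receptor gene that marks active stem cells, had 12.9, 20.1 and 30.1 CPM with fish oil/pectin and 19.7, 22.0 and 32.2 CPM with corn oil/cellulose. Its log2 fold change of -0.18 ± 0.12 (adjusted p = 0.267) was within the spread, although 3 of 7 fish oil/pectin libraries lay below all 9 others. Smoc2, a secreted matrix protein gene of stem cells, was at 0.18 ± 0.09 (adjusted p = 0.104). The Polycomb gene Bmi1 was at -0.17 ± 0.08 (adjusted p = 0.114). Prom1 (0.01 ± 0.14), Rgmb (-0.0022 ± 0.06), Tnfrsf19 (-0.05 ± 0.22) and Msi1 (-0.11 ± 0.27) lay close to 0 on the same scale in the fit of all libraries. With a diet effect for each name form, Tnfrsf19 was at -0.51 in GC-named libraries and 0.65 in the others. That difference did not pass (-1.15 ± 0.37, adjusted p = 0.0632). Prom1 was at 0.18 and -0.31 (difference 0.49 ± 0.28, adjusted p = 0.296). Olfm4, a stem cell marker of the human colon and of the mouse small intestine, was nearly absent, with a median of 0.0575 CPM with fish oil/pectin and 0.205 CPM with corn oil/cellulose, and 146 of its 228 counts lay in corn oil/cellulose library 5.

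Among the other target genes Ccnd1 rose, Sox9 fell, and Myc and Cd44 did not pass. Ccnd1 (chr7:144929931-144939925), which encodes cyclin D1 of the G1 phase, had 106, 159 and 276 CPM with fish oil/pectin and 98.4, 124 and 157 CPM with corn oil/cellulose. It rose by 0.54 ± 0.15 on the log2 scale, a 1.46-fold difference (adjusted p = 0.0106) that was the largest among the 12 members that passed. Its exons share 1100 bases with LTO1 on the opposite strand, whose counts were not analysed here. Sox9 (chr11:112782224-112787760), a transcription factor of crypt progenitors, had 68.0, 81.4 and 86.3 CPM with fish oil/pectin and 79.6, 93.6 and 106 CPM with corn oil/cellulose (-0.24 ± 0.07, adjusted p = 0.00903). All 7 fish oil/pectin libraries lay below the corn oil/cellulose median of Sox9. The Eph receptor genes Ephb2 (0.11 ± 0.09) and Ephb3 (0.08 ± 0.07), which position cells along the crypt, did not pass. Neither did Cd44 (0.14 ± 0.19), a surface receptor for hyaluronan, Ccnd2 (-0.04 ± 0.14), the cyclin D2 gene, Myc (0.01 ± 0.15), a growth regulator, or Sp5 (0.14 ± 0.35), a direct target that represses other targets.

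**Figure D2:**
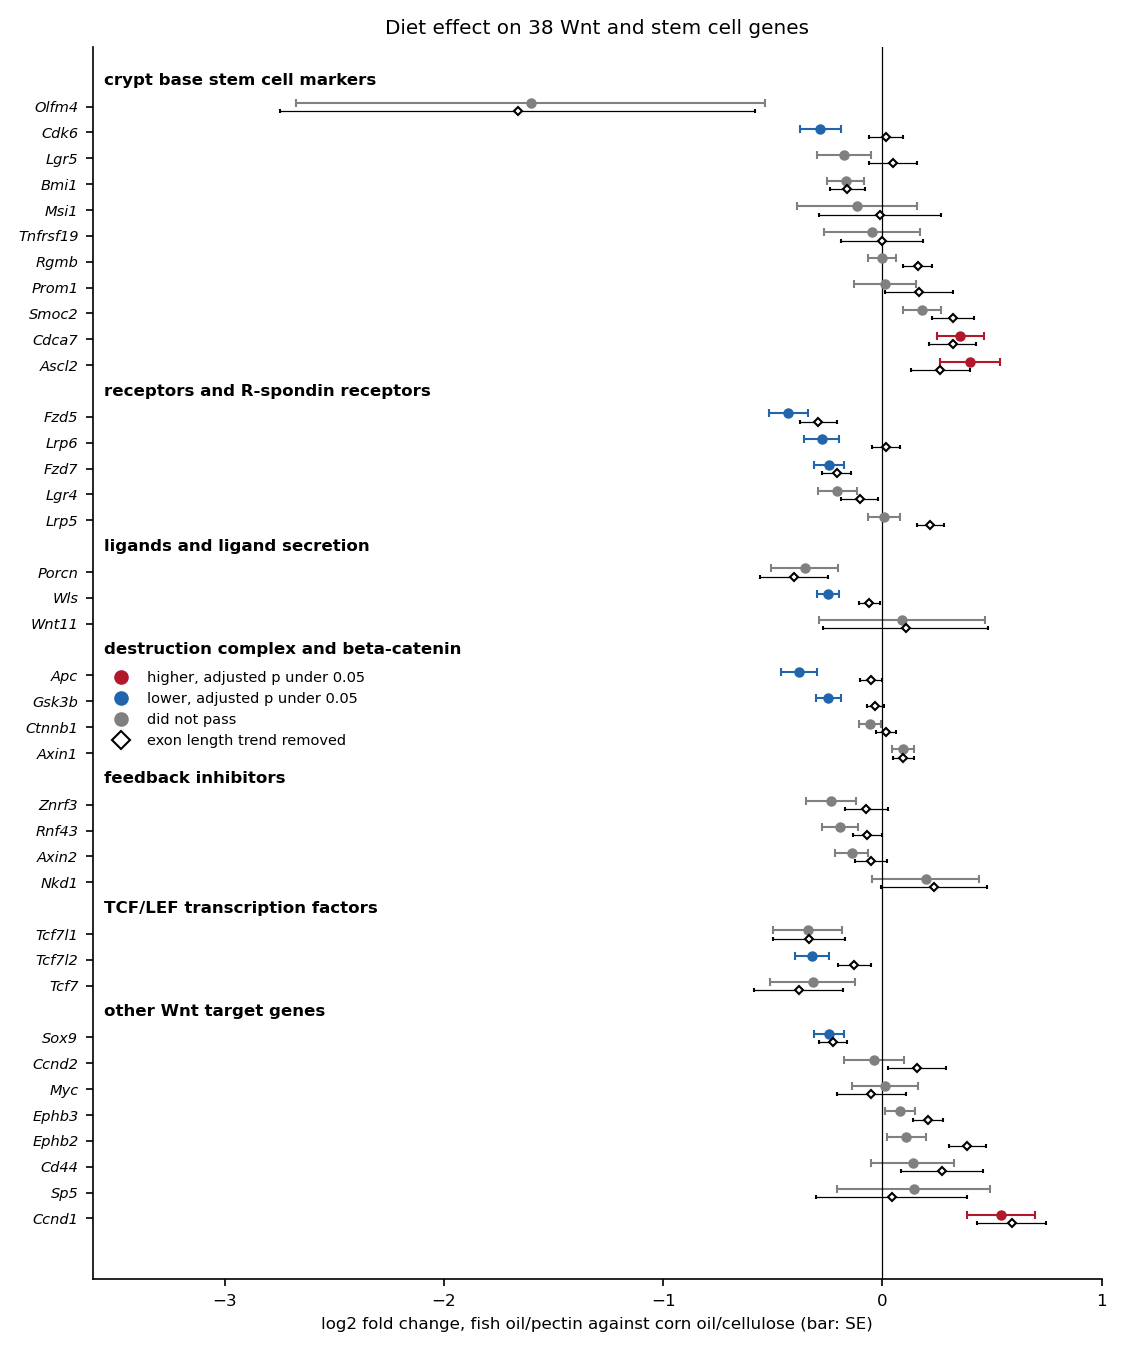
Log2 fold change of fish oil/pectin against corn oil/cellulose (horizontal axis) with its SE for the 38 tested members, grouped by role. Coloured circles are the fit of all libraries and open diamonds the same fit with each library's trend on exon length removed, in which Lrp6 is at 0.02 and Ephb2 at 0.39. Olfm4, with 228 counts in all, has the widest bar.

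Exon length went together with the direction of change, in the members as in all genes. Among all genes tested, 4.29% fell and 36.4% rose where exons totalled up to 2000 bases, and 52.2% fell and 5.11% rose above 8000 bases. The trend was mostly in the GC-named libraries. There the median log2 fold change of all genes was 0.33 up to 2000 bases and -0.33 above 8000. In the libraries without GC it was 0.05 and -0.07. The members that fell had a median exon length of 8792 bases and those that rose 3202, against 4106 for all genes. Of the 10 members above 8000 bases 6 fell, namely Apc, Lrp6, Cdk6, Gsk3b, Wls and Tcf7l2. When each library's trend on exon length was removed, none of these 6 passed, with log2 fold changes of -0.05 for Apc, 0.02 for Lrp6, 0.02 for Cdk6, -0.03 for Gsk3b, -0.06 for Wls and -0.13 for Tcf7l2. Fzd5 (-0.29, adjusted p = 0.0136), Fzd7 (-0.21, adjusted p = 0.0215) and Sox9 (-0.23, adjusted p = 0.0139), all shorter than 8000 bases, still fell. Ccnd1 (0.59, adjusted p = 0.00916) and Cdca7 (0.32, adjusted p = 0.0276) still rose, whereas Ascl2 did not pass (0.26, adjusted p = 0.139). The additional members that rose were Ephb2 (0.39, adjusted p = 0.00215), Smoc2 (0.32, adjusted p = 0.0153), Lrp5 (0.22, adjusted p = 0.0116) and Ephb3 (0.21, adjusted p = 0.0238). In that fit 9 members passed (23.7%), against 33.5% of all genes, with 6 higher against a background of 22.6% and 3 lower against 10.8%. The median log2 fold change was then 0.0071 over the members and 0.034 over all genes. Lgr5, with 10264 exon bases, was at 0.05 in place of -0.18. The part of RNA quality or library preparation in the trend on exon length was not tested.

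**Figure D3:**
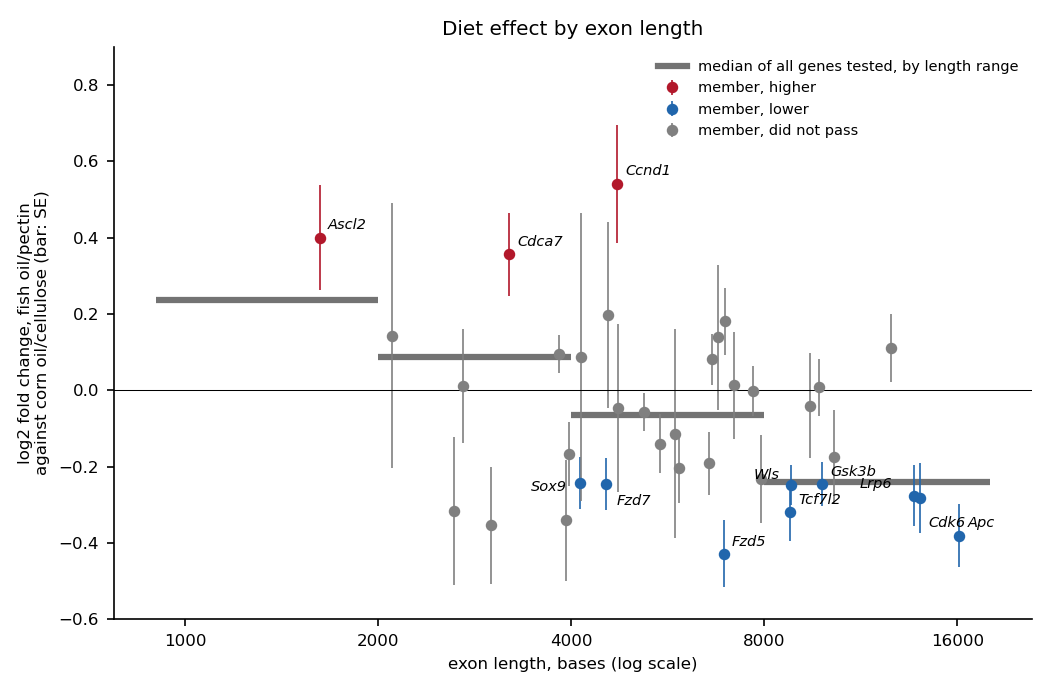
Log2 fold change of fish oil/pectin against corn oil/cellulose with its SE (vertical axis) against exon length in bases (horizontal axis, log scale) for the tested members other than Olfm4. Grey bars mark the median of all genes tested in 4 length ranges, in the fit of all libraries. It goes from 0.24 up to 2000 bases to -0.24 above 8000 bases, and 6 of the 9 members that fell lie in the longest range.

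Diet effects were also estimated for each form of library name, 5 libraries against 5 with GC and 2 against 4 without. In the GC-named libraries 15 members fell and 1, Ascl2, rose, 16 of 38 in all, against 45.0% of all genes in either direction, 23.1% higher and 21.8% lower. In the libraries without GC no gene at all passed in this joint fit (0.0%), so none of the 38 members could. At an unadjusted p under 0.05 there were 9 members (23.7%) and 2385 genes (16.7%). Fitted alone, the libraries without GC gave 4 higher members, Ccnd1 (0.73), Myc (0.65), Tcf7 (0.62) and Cdca7 (0.56), against 4.34% of all genes. In that fit 1 member was lower, Fzd5 (-0.46), against 2.02% of all genes. The median over the members was -0.27 in GC-named libraries and 0.06 in the others, beside 0.0033 and -0.01 over all genes. Fzd5 was at -0.41 in GC-named libraries and at -0.47 in the others, Wls at -0.27 and -0.22, and Ccnd1 at 0.45 and 0.72, and for these 3 the differences between the forms did not pass (adjusted p = 0.672 to 0.879). Among the other members that fell in the fit of all libraries, Fzd7 was at -0.28 in GC-named libraries and -0.19 in the others, Lrp6 at -0.35 and -0.14, Tcf7l2 at -0.37 and -0.23, Sox9 at -0.31 and -0.12, and Cdk6 at -0.40 and -0.07. Of those that rose, Ascl2 was at 0.58 in GC-named libraries and 0.05 in the others, and Cdca7 at 0.25 and 0.55. These 7 members kept their direction in both forms, and none of their differences between the forms passed. Epithelial markers, beside this, summed to 21070.1 to 26638 CPM with fish oil/pectin and 17148 to 18532 CPM with corn oil/cellulose in GC-named libraries, and to 14881 to 15151 CPM and 14879 to 14974 CPM with these diets in the others; their part was not tested. Lgr5 was at -0.36 (adjusted p = 0.0478) in GC-named libraries and at 0.14 in the others, but the difference itself did not pass (-0.50 ± 0.23, adjusted p = 0.19).

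The diet effect differed between the forms for 5 members, 13.2% of those tested, against 8.41% of all genes. Tcf7 had 6.25 to 8.57 CPM in the GC-named fish oil/pectin libraries and 11.0 to 16.8 CPM in the GC-named corn oil/cellulose libraries, without overlap. In the libraries without GC it had 9.59 and 11.9 CPM with fish oil/pectin and 6.56 to 7.70 CPM with corn oil/cellulose, the opposite order. Its log2 fold changes were -0.85 and 0.61, and the difference of -1.46 ± 0.21 passed (adjusted p = 0.00556). Myc was at -0.35 in GC-named libraries and 0.64 in the others, a difference of -0.99 ± 0.21 (adjusted p = 0.0181). Rnf43 was at -0.38 and 0.15 (difference -0.53 ± 0.12, adjusted p = 0.0189). Apc was at -0.56 and -0.06 (difference -0.50 ± 0.12, adjusted p = 0.0254), and Gsk3b at -0.36 and -0.04 (difference -0.32 ± 0.09, adjusted p = 0.0389). Once the trend on exon length was removed, Tcf7 (-1.54) and Myc (-1.06) still differed, and Apc (-0.14), Gsk3b (-0.08) and Rnf43 (-0.38) did not. When fish oil/pectin library 2 was left out, which leaves 1 fish oil/pectin library without GC, only Tcf7 differed (-1.61), and without corn oil/cellulose library 3 only Tcf7 and Myc. The difference of Gsk3b was lost with 12 of the 16 libraries when each was left out in turn.

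**Figure D4:**
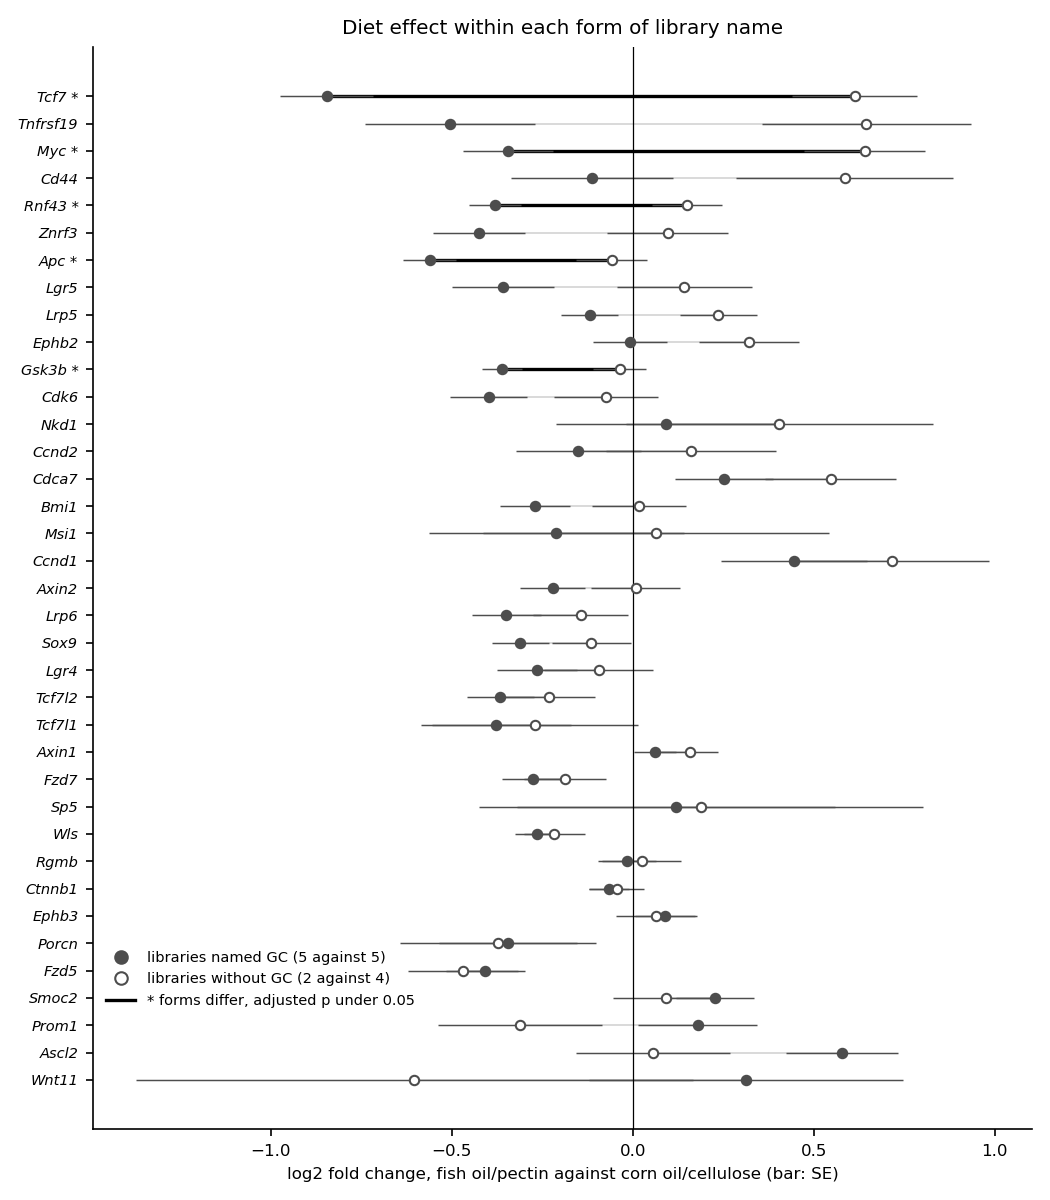
Log2 fold change of fish oil/pectin against corn oil/cellulose (horizontal axis) with its SE within the GC-named libraries (filled, 5 against 5) and within the others (open, 2 against 4), for the tested members other than Olfm4. Black lines and stars mark the 5 members whose effects differ between the forms, with Tcf7 at -0.85 and 0.61 at the top.

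T cell markers moved with the diet in the GC-named libraries, as Tcf7 did. Their summed level was 20.6 to 36.2 CPM in the GC-named fish oil/pectin libraries and 49.4 to 98.6 CPM in the GC-named corn oil/cellulose libraries, and without GC it was 15.7 to 17.6 CPM with fish oil/pectin and 13.7 to 19.2 CPM with corn oil/cellulose. Of 10 tested T cell markers 9 fell and none rose, against 20.1% and 21.7% of all genes, with a median of -1.23. In the libraries without GC the markers overlapped between the diets while Tcf7 did not. With the mean log2 level of these markers as a further term, 1 member fell, Tcf7l2 (-0.37, adjusted p = 0.0471), against 4.98% of all genes, and 3 rose, Ccnd1, Cdca7 and Ephb2, against 8.84%. The log2 fold changes of Fzd5 (-0.41, adjusted p = 0.0551) and Wls (-0.23, adjusted p = 0.0621) changed little in size but did not pass. Fzd7 (-0.26), Lrp6 (-0.30) and Sox9 (-0.20) did not pass either. Other members that had passed without this term came nearer to 0, with Ascl2 at 0.08 in place of 0.40, Cdk6 at -0.07 in place of -0.28, Gsk3b at -0.12 in place of -0.25 and Apc at -0.23 in place of -0.38. The part of T cells in the members' differences was not tested.

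**Figure D5:**
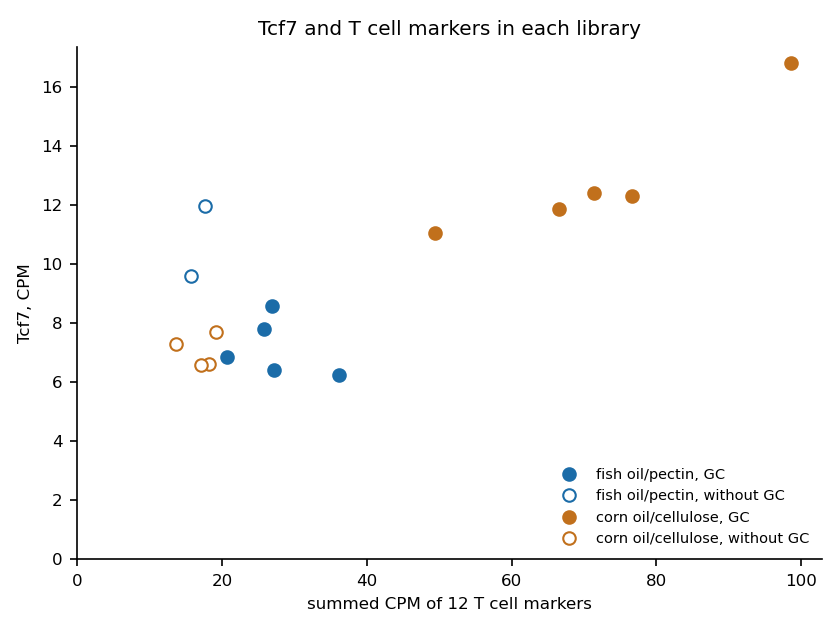
Tcf7 in CPM (vertical axis) against the summed CPM of 12 T cell markers (horizontal axis) in the 16 libraries, fish oil/pectin in blue and corn oil/cellulose in orange, filled where the name begins with GC. The 5 GC-named corn oil/cellulose libraries stand apart at 49.4 to 98.6 CPM of markers and 11.0 to 16.8 CPM of Tcf7.

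Numbers within the library names fell into a lower and a higher series, and all 7 fish oil/pectin libraries but only 4 of the corn oil/cellulose libraries belong to the lower. Within that series, 7 libraries against 4, Apc (-0.33), Cdk6 (-0.36), Fzd5 (-0.43) and Wls (-0.22) fell, 4 members against a background of 7.4%, and none rose, against 8.37%. Ccnd1 was at 0.54 there (adjusted p = 0.094) and Cdca7 at 0.34 (adjusted p = 0.0755).

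Beyond the module, other genes of the pathway were described in lists. Of all genes tested 21.7% rose and 20.1% fell, and the counts of each list stand beside these shares. Of 17 other Wnt ligand genes 7 had no count in any library, and the 4 that could be tested, Wnt5a (-0.28 ± 0.25), Wnt5b (0.56 ± 0.35), Wnt6 (0.11 ± 0.26) and Wnt8b (-0.58 ± 0.34), did not pass. The R-spondin genes Rspo1, Rspo2 and Rspo3, whose products amplify the signal through Lgr receptors, had no count, and Rspo4 had 2 counts with each diet. Of the 12 genes tested in the list of R-spondins and other receptors, none of them an R-spondin, 2 rose and 4 fell, with a median of -0.06. Among them Fzd1 averaged 24.1 ± 3.68 CPM with fish oil/pectin and 35.4 ± 3.89 CPM with corn oil/cellulose (SD, n = 7 and 9), a log2 fold change of -0.53 ± 0.08 (adjusted p = 0.00046), whereas Fzd2 rose by 0.64 ± 0.19 (adjusted p = 0.0114). The Wnt-binding co-receptor gene Ror1 (-0.59) and Fzd8 (-0.27) also fell. Of 4 tested antagonists the secreted Wnt-binding inhibitor Wif1 (-0.57 ± 0.15, adjusted p = 0.0062) and the Dickkopf receptor Kremen1 (-0.21 ± 0.08, adjusted p = 0.045) fell. Once the trend on exon length was removed, Fzd1 (-0.51), Ror1 (-0.50), Fzd2 (0.63) and Wif1 (-0.65) still passed. Fzd8 (-0.16, adjusted p = 0.166) and Kremen1 (-0.05, adjusted p = 0.657) then did not.

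In the cytoplasm 4 of 18 genes fell and 1 rose, against 20.1% and 21.7% of all genes. The tankyrases Tnks (-0.49) and Tnks2 (-0.24), which turn over Axin, and the adaptor Dvl3 (-0.33) fell, and the casein kinase gene Csnk1g2 rose by 0.19 on the log2 scale. Among 14 nuclear cofactors 6 fell and 4 rose. Those with the lowest p were the acetyltransferases Ep300 (-0.61) and Crebbp (-0.32) and the beta-catenin adaptor Bcl9 (-0.39), all lower, and the beta-catenin antagonist Cby1 (0.53), higher. Among 14 other crypt stem and progenitor markers 5 fell and 1 rose. Slc12a2, the chloride cotransporter gene of crypt cells, fell by 0.39 ± 0.11 (adjusted p = 0.0101), as did the ephrin gene Efnb2 (-0.25) and Phlda1 (-0.28), and Cdx1, an intestinal homeobox gene, rose by 0.30 on the log2 scale. These lists had medians of -0.04, -0.08 and -0.09, near that of all genes. Once the trend on exon length was removed, Tnks (-0.18), Dvl3 (-0.21), Ep300 (-0.31), Bcl9 (-0.21) and Phlda1 (-0.37) still fell. Csnk1g2 (0.25), Cby1 (0.36) and Cdx1 (0.17) still rose. Tnks2 (-0.0090), Crebbp (-0.02), Slc12a2 (-0.15) and Efnb2 (-0.11) did not pass in that fit (adjusted p = 0.178 to 0.892). In the fit of all libraries 11 of 12 cell cycle genes rose and none fell, with a median of 0.68. Their summed level was 684 to 1411 CPM with fish oil/pectin and 517 to 927 CPM with corn oil/cellulose. Mki67, a marker of cycling cells, was the gene of this list that did not pass (0.36 ± 0.15, adjusted p = 0.0599). Once the trend on exon length was removed, Mki67 passed (0.59, adjusted p = 0.00826).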

How the data were processed

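RNA-seq counts of 16 libraries were compared between 7 fish oil/pectin and 9 corn oil/cellulose libraries, grouped by their titles. The authors deposited raw read counts per gene symbol, and 0 columns were left unused. The submitters' processing notes name GRCm38, the aligner STAR 2.6.0a and the counter HTSeq 0.11.1; per the labels' protocols 200 ng of total RNA entered a stranded mRNA library kit. Neither the annotation nor the strand setting used in counting is given in these sources. No pair of libraries of a diet agreed within sampling noise (chi-square per degree of freedom 8.20 to 141 over 57 pairs).

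From the deposited counts, edgeR 4.0.16 (R 4.3.3) was run with TMM scaling, filterByExpr (14321 genes, 99.9% of counts), its robust quasi-likelihood test, the name form as a term, and Benjamini-Hochberg adjustment over all genes. Standard errors are |log2 fold change| divided by the root of F. CPM use TMM factors, and TPM were computed from counts and GENCODE M21 exon lengths. A joint fit gave each name form its own diet effect and tested their difference. Length trends were removed per library as loess offsets (span 0.3). The fits were first tested on simulated data with known changes.

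The members, lists and settings were chosen with earlier results of these data known. All members are named, with up to 4 genes of lowest p from each other list that passed, the tested ligands, Slc12a2 and Mki67. Alternatives were DESeq2 1.42.0, limma 3.58.1 voom, other scalings, filters, terms and subsets, and leaving out each library. Fits within libraries read as male or female, combinations with the length trend, and the length trend in the test between name forms were chosen after seeing the data.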

Additional observations from a re-analysis of the deposited data

Results flagged for a closer look

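Single libraries stood far from the others of their diet for 7 members. In 84 groups of libraries examined, 8 such values were found. The cut-off is one that about 1 in 20 groups of normally distributed values would pass. CPM of genes with few counts need not be so distributed, and the members share libraries. The 8 can therefore not be set against chance. The measure is the gap to the nearest library as a share of the group's range. In fish oil/pectin library 7 it was 0.697 for Tcf7l1 (22.3 CPM, next 45.4), 0.676 for Nkd1 (2.64 CPM, next 1.38) and 0.606 for Msi1 (4.87 CPM, next 2.59). In corn oil/cellulose library 5 it was 0.948 for Olfm4 (9.05 CPM, next 0.585) and 0.637 for Nkd1 (2.11 CPM, next 1.33). Wnt3 in corn oil/cellulose library 7 (0.641) rests on 9 counts. Porcn in corn oil/cellulose library 6 (7.29 CPM, 0.5003) and Bmi1 in library 1 (24.1 CPM, 0.509) were also high. None of these genes passed in the fit of all libraries.

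The diet effect differed between GC-named and other libraries, by the test of the difference, for 5 members: Tcf7 (-1.46), Myc (-0.99), Rnf43 (-0.53), Apc (-0.50) and Gsk3b (-0.32). Among the other genes named it differed for Slc12a2 (-0.68), Tnks (-0.59), Ep300 (-0.56) and Crebbp (-0.34). Each value is the log2 fold change in GC-named libraries minus that in the others. In all 9 genes the GC-named libraries gave the lower fold change. All 6 libraries without GC read as male, as did 3 of the 10 with GC. For Tcf7 the corn oil/cellulose males had 12.4 and 12.3 CPM in GC-named libraries and 6.56 to 7.70 CPM in the others. With fish oil/pectin the order was the opposite. There Tcf7 was at 8.57 CPM in the male GC-named library and at 11.9 and 9.59 CPM in the males without GC. The part of T cell markers, which also differ between the forms, was not tested.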

How the results depend on the processing

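Of the 9 members that fell, all 9 passed when any single library was left out (9 to 13 lower, 2 to 3 higher), as with median-ratio scaling, without a filter, with 1 CPM in 7 libraries, in DESeq2, in limma voom and with a sex term. Higher members numbered 0 with the stromal term, 0 in the lower number series, 0 at an adjusted p of 0.01, 1 in GC-named libraries alone, 1 in libraries read as female, 1 without fish oil/pectin libraries 6 and 7, 1 with total-count scaling and 6 without the length trend. Lower members numbered 16 in GC-named libraries alone, 1 in the others alone, 4 in the lower number series, 14 with total-count scaling (which moved the median of all genes to -0.08), 1 with the T cell term, 3 without the length trend, 1 in libraries read as male, and 0 without the length trend combined with either the T cell term or leaving out fish oil/pectin libraries 6 and 7. The share of all genes that passed moved too: in place of 41.7% it was 41.2% in GC-named libraries alone, 6.36% in the others alone, 15.8% in the lower number series, 30.4% without fish oil/pectin libraries 6 and 7, 42.1% with total-count scaling, 13.8% with the T cell term, 24.6% with the stromal term, 25.1% at an adjusted p of 0.01, 10.1% in libraries read as male and 31.2% in those read as female. Members that differed between name forms numbered 0 with the T cell term, where Apc (-0.66), Rnf43 (-0.70), Gsk3b (-0.35), Tcf7 (-1.11) and Myc (-0.70) had adjusted p of 0.0503 to 0.176, 2 without the length trend and 1 to 7 with a library left out. The causes of these changes were not tested. With the replicate block 2 rose and 7 fell, and Ascl2, Gsk3b and Sox9 no longer passed. The shared numbers do not pair the libraries: the correlations of 7 same-numbered pairs ran from -0.146 to 0.279, and 0 of 7 were best with their own number. The filter on low counts left out Wnt3, Dkk3, Notum and Lef1, of which Notum and Lef1 passed without it, and Olfm4 rests on 228 counts.

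Some log2 fold changes had the opposite sign in other settings. Among members that had passed in the fit of all libraries this held for Ascl2 (0.40 there), Cdk6 (-0.28), Lrp6 (-0.28) and Gsk3b (-0.25). Among other genes that had passed it held for Slc12a2 (-0.39), Crebbp (-0.32), Tnks2 (-0.24) and Kremen1 (-0.21). Olfm4 (-1.60) and Tcf7 (-0.32) had not passed. All changes of sign are listed by setting, with the value there. In libraries without GC alone these were Lgr5 0.15, Prom1 -0.30, Msi1 0.073, Bmi1 0.028, Rgmb 0.035, Tnfrsf19 0.66, Axin2 0.018, Rnf43 0.16, Znrf3 0.11, Tcf7 0.62, Ccnd2 0.17 and Slc12a2 0.060. With the T cell marker term these were Lgr5 0.035, Msi1 0.49, Bmi1 0.053, Rgmb 0.073, Tnfrsf19 0.55, Tcf7 0.39, Wnt5a 0.082 and Wnt6 -0.33. Without the length trend these were Lgr5 0.047, Rgmb 0.16, Cdk6 0.018, Lrp6 0.015, Ctnnb1 0.017, Myc -0.050 and Ccnd2 0.16. Without the length trend and libraries 6 and 7 these were Lgr5 0.032, Rgmb 0.13, Tnfrsf19 0.11, Cdk6 0.016, Lrp6 0.072, Ctnnb1 0.013, Rnf43 0.0053, Znrf3 0.0041, Sp5 -0.32, Ccnd2 0.21, Kremen1 0.016 and Tnks2 0.0067. Without the length trend and with the T cell term these were Lgr5 0.16, Ascl2 -0.0095, Msi1 0.55, Bmi1 0.040, Rgmb 0.16, Tnfrsf19 0.56, Cdk6 0.12, Gsk3b 0.0055, Rnf43 0.045, Znrf3 0.020, Tcf7 0.34, Ccnd2 0.10, Wnt5a 0.17, Wnt6 -0.39, Crebbp 0.022 and Slc12a2 0.042. In libraries read as female these were Olfm4 0.50, Rgmb 0.0011, Lrp5 -0.22, Ephb2 -0.073 and Myc -0.37. With the replicate block these were Prom1 -0.10, Rgmb 0.0049, Ccnd2 0.068 and Wnt6 -0.076. In the lower number series these were Prom1 -0.10, Lrp5 -0.011, Wnt11 -0.18, Cd44 -0.010, Sp5 -0.0016, Ccnd2 0.16 and Wnt6 -0.025. Without fish oil/pectin libraries 6 and 7 these were Prom1 -0.067, Tnfrsf19 0.063, Sp5 -0.26 and Ccnd2 0.040. With total-count scaling these were Prom1 -0.067, Lrp5 -0.065, Wnt11 -0.00047 and Myc -0.061. With median-ratio scaling these were Prom1 -0.0010, Lrp5 -0.0056 and Myc -0.0012. With a minimum of 1 CPM in 7 libraries these were Prom1 -0.0024, Lrp5 -0.0069 and Myc -0.0029. In DESeq2 these were Prom1 -0.00012, Lrp5 -0.0046 and Myc -0.00084. In limma voom these were Prom1 -0.062, Wnt11 -0.12, Myc -0.072, Sp5 -0.13 and Ccnd2 0.11. With the stromal marker term these were Prom1 -0.16, Rgmb 0.079, Lrp5 -0.073, Wnt11 -0.067, Nkd1 -0.25, Cd44 -0.12, Myc -0.21 and Sp5 -0.52. In libraries read as male these were Prom1 -0.14, Tnfrsf19 0.45, Rnf43 0.027, Znrf3 0.073, Tcf7 0.25, Sp5 -0.068 and Ccnd2 0.22. Without the name form term these were Lrp5 -0.027. In GC-named libraries alone these were Lrp5 -0.14, Cd44 -0.14, Ephb2 -0.031 and Myc -0.37. With a library left out, the ranges that cross 0 were Olfm4 -2.44 to 0.62, Prom1 -0.11 to 0.067, Msi1 -0.38 to 0.0043, Rgmb -0.043 to 0.019, Tnfrsf19 -0.20 to 0.043, Lrp5 -0.040 to 0.043, Wnt11 -0.11 to 0.33, Nkd1 -0.021 to 0.34, Myc -0.16 to 0.089, Sp5 -0.21 to 0.27, Ccnd2 -0.12 to 0.038 and Wnt6 -0.034 to 0.26.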

Other observations

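Within diets and name forms, members also moved with each other across the 16 libraries. After the means of diet and name form were removed, the highest Pearson correlations of log2 CPM were 0.87 for Msi1 with Cd44, 0.84 for Lrp5 with Ephb2 and 0.83 for Cdca7 with Ccnd1. The lowest were -0.85 for Msi1 with Tcf7l1 and for Cdca7 with Tcf7l2. Cdca7 and Ccnd1, which both rose, thus ran together within each diet, while Tcf7l2, which fell, ran against Cdca7. These values were picked from all pairs of members, share libraries, depth and scaling, and are a description.

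Of all genes tested, the pattern most like that of Lgr5 was found in Phf20 (0.90), Sema7a (0.85) and Lca5 (0.85). For Axin2 it was Trim32 (0.83), and for Tcf7 it was Zfp146 (0.82), each over 16 libraries by the same measure.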
